A study of Mus musculus with 6 samples.

Results

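The leukocyte integrins described here are 10 genes of the integrin family, Itgam, Itgal, Itgax, Itgb2, Itga4, Itga5, Itga6, Itgav, Itgb1 and Itgb7. They were picked by gene symbol, with earlier results of these data known, and make up 10 of the 27179 genes listed in the deposited table. The study sequenced total RNA of leukemia-initiating cells (LICs) of a mouse acute myeloid leukemia driven by the human fusion oncogene MLL-AF9. Of the 6 libraries, 3 are labelled Asic3-null (Asic3-/-) and 3 are labelled WT (Asic3+/+), where Asic3 encodes an acid-sensing ion channel. Every library came from bone marrow of C57BL/6 mice aged 8 weeks, and the leukemia was made in the study by infecting Lin- fetal liver cells with a retrovirus carrying MLL-AF9 and YFP and transplanting them into irradiated recipients. The cells were sorted by flow cytometry as YFP+, Mac-1+ and c-Kit+, so both groups carry the same oncogene and passed the same gate. Mac-1 is the surface protein made of the Itgam and Itgb2 chains, so these 2 members encode a marker of the gate itself. The labels do not say how many animals or transplanted clones stand behind each library.

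Integrins are surface receptors made of 1 alpha and 1 beta chain, and the pair decides the ligand. On leukocytes the β2 chain (Itgb2, CD18) pairs with αL (Itgal) to form LFA-1, with αM (Itgam) to form Mac-1 and with αX (Itgax, CD11c), and these receptors bind ICAMs, complement fragments and fibrinogen during arrest, phagocytosis and killing by myeloid cells. The β1 chain (Itgb1) pairs with α4, α5, α6 and αV to bind VCAM-1, fibronectin and laminin, contacts that hold hematopoietic progenitors in the marrow niche. The β7 chain (Itgb7) pairs with α4 to bind MAdCAM-1 in gut vessels, and with αE.

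Levels are given as RPKM, reads scaled by gene length and by library size, which the authors computed per gene and library. Because RPKM is scaled by length, levels of different genes can be set side by side. The values are exact enough to recover the whole reads behind them, and the library size inferred in this way was 2102707, 1947168 and 2367414 reads in the libraries labelled WT and 2315406, 2381861 and 2348251 in those labelled Asic3-null. In a gene of 2 kb a single read then counted for 0.210 to 0.257 RPKM. Groups were compared on log2(RPKM + 1) with limma's moderated test over the 12037 genes with a mean of at least 1 RPKM, and a gene was called when its Benjamini-Hochberg adjusted p over all those genes was under 0.05. A log2 fold change is the mean of the Asic3-null group minus that of the WT group, on that scale. The targeted gene ran against the labels, since Asic3 RPKM was 1.22, 1.85 and 0.435 under the WT label but 9.12, 4.11 and 6.58 under the Asic3-null label. Xist, an RNA made from the inactive X chromosome, was at most 0.0573 RPKM in the WT group and 46.5 to 71.9 RPKM in the Asic3-null group, and 4 Y-linked genes summed to 81.4 to 118.2 RPKM in the former and to 0 in the latter. The genotype label and sex therefore cannot be told apart, whether the labels of the groups were exchanged was not tested, and every direction below is that of the libraries as labelled.

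The members fell into 4 that were lower under the Asic3-null label and 6 that were not called or not tested. Itgam, Itgb7, Itgb2 and Itgal were the lower ones, 4 of the 9 members tested, and no member was called higher. Over all tested genes 3.35% were called, 2.82% lower and 0.523% higher. All 4 had more than 10 RPKM in every library of both groups, so none passed the filter through 1 group alone. Itgb1, Itga4, Itga5, Itga6 and Itgav were tested and not called, and Itgax was below the filter. The median log2 fold change of the 9 tested members was -0.29, beside 0.03 over all tested genes. The groups did not overlap for 5 of the 9 members, 4 lower and 1 higher, against 22.6% of all tested genes (11.4% lower and 11.2% higher).

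**Figure D1:**
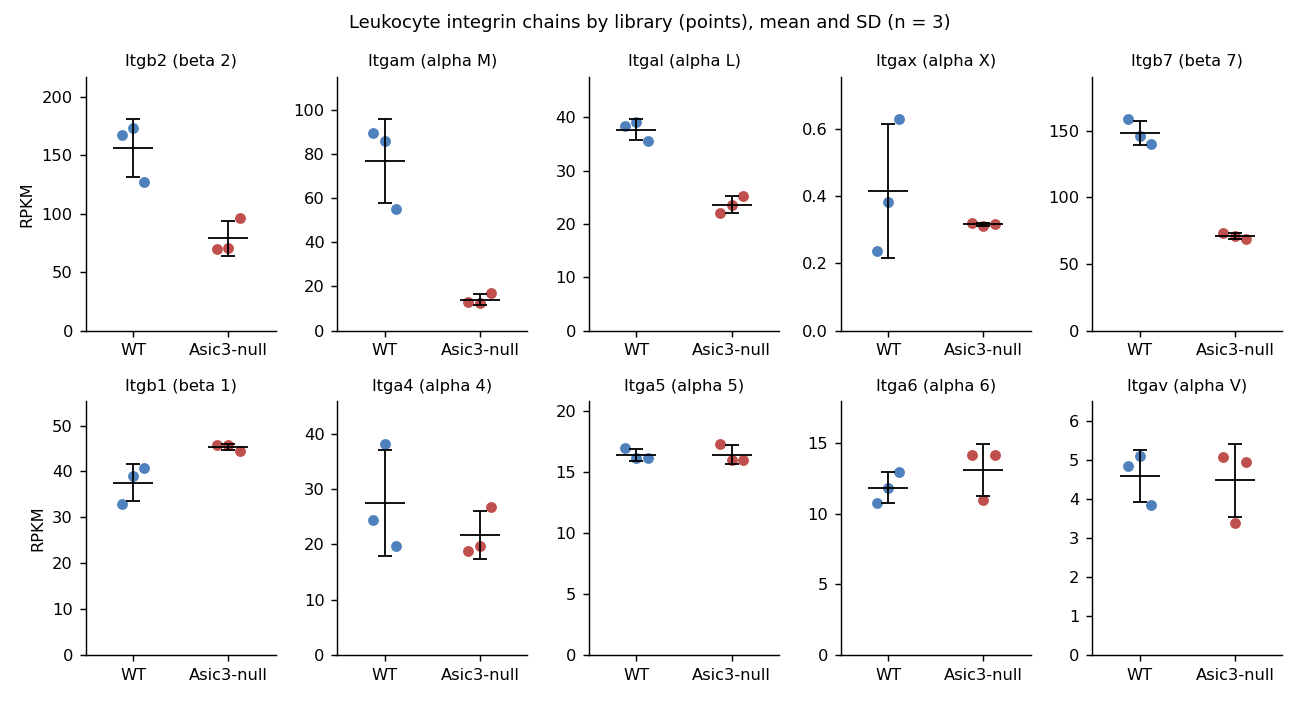
RPKM of the 10 leukocyte integrin genes, 1 panel per gene with its own axis from 0, with 1 point per library (blue, labelled WT; red, labelled Asic3-null) and the mean and SD of 3 libraries as bars. The red points lie below all blue points for Itgb2, Itgam, Itgal and Itgb7, above them for Itgb1, and among them for the other 5 genes.

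Markers of mature neutrophils, and some of macrophages, were also lower under the Asic3-null label. Whether they varied together with the lower members was not tested. All 10 tested genes of a list of 12 mature neutrophil markers were called, each with lower levels under the Asic3-null label (the Retnlg call was lost under 6 of 14 alternative settings, among them leaving out Asic3-null replicate 2 or WT replicate 1 or 2), and the list summed to 3899 to 4341 RPKM in the libraries labelled WT against 239 to 375 RPKM in those labelled Asic3-null. The neutrophil surface marker Ly6g had 1 read in 1 library labelled Asic3-null and was listed at 0 in the other 5. Of 11 macrophage markers 5 were tested, 4 of them lay lower in the Asic3-null group without overlap and 2 were called, Csf1r and Adgre1. Among the 4, Vcam1 was not called and passed the filter through the libraries labelled WT alone. Its mean was 2.95 RPKM in the WT group and 0.874 RPKM in the Asic3-null group. The macrophage list summed to 269 to 314 RPKM against 155 to 193 RPKM. The 10 LIC markers were all above 1 RPKM on average, with sums of 993 to 1573 RPKM and 1068 to 1087 RPKM, 4 of them higher and 2 lower in the Asic3-null group without overlap. Of these only Meis1 was called, higher, and that call was lost under 8 of 14 alternative settings, among them leaving out Asic3-null replicate 2 or 3 or any 1 library labelled WT. The 2 lower ones, Hoxa9 and Hoxa10, had log2 fold changes of -0.58 and -0.85 (limma adjusted p = 0.151 and 0.112). The sort was set to keep c-Kit+ cells, whereas mature neutrophils and macrophages lack c-Kit, and how many passed it was not measured. The part of such cells in the integrin values was not tested, and in bulk RNA fewer cells of a type and less RNA per cell cannot be told apart. Itgam, Itgal and Itgb2 are themselves made by neutrophils and macrophages. Platelet markers summed to 7.36 to 12.5 RPKM in the libraries labelled WT and 2.14 to 3.37 RPKM in the others, with 1 of 11 tested and called lower (Gp1bb, a call lost under 6 of 13 alternative settings, among them leaving out Asic3-null replicate 1 or 2 or WT replicate 1 or 3) and Pf4, Ppbp and Gp6 listed at 0. T and NK cell markers summed to 12.3 to 20.2 and 8.35 to 18.8 RPKM (Cd3e, Cd8a, Klrb1c and Ncr1 listed at 0). B cell markers summed to 43.4 to 50.5 and 37.4 to 47.8 RPKM (Ms4a1 listed at 0), and erythroid markers to 2.84 to 11.1 and 0.972 to 2.41 RPKM. In each of these 3 lists 1 gene was tested and none called by limma. The erythroid gene, Hba-a1, measured 4.25, 1.84 and 0 RPKM in the libraries labelled WT and 0 in those labelled Asic3-null. It passed the filter through the libraries labelled WT alone, so its unadjusted limma p under 0.05 is not evidence of a difference.

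Upstream sequence is shown for Itgam and Itgb7, the members with the lowest adjusted p, and for Itgb1, the β chain that was not called, so that a promoter of a lower member can be read beside one that was not. Each run is the 250 bases before a RefSeq transcript start on GRCm38.p6, 5′ to 3′ on the gene's strand, with GAGGAA or its reverse complement TTCCTC in capitals. These letters are the purine-rich core bound by PU.1, a myeloid transcription factor known for its role at the Itgam promoter. The Itgam window is chr7:128062390-128062639 on the plus strand, the Itgb7 window chr15:102231936-102232185 on the minus strand, before a start that lies inside the span listed for the gene, and the Itgb1 window chr8:128685404-128685653 on the plus strand.
Itgam: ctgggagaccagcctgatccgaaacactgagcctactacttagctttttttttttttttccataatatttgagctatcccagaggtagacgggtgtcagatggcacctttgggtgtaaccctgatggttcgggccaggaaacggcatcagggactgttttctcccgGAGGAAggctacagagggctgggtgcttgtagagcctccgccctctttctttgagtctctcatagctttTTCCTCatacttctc
Itgb7: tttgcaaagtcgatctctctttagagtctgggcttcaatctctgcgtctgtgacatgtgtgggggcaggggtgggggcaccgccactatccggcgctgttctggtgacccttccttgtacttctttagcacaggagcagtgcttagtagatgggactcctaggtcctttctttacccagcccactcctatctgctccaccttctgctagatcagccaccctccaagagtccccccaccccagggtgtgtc
Itgb1: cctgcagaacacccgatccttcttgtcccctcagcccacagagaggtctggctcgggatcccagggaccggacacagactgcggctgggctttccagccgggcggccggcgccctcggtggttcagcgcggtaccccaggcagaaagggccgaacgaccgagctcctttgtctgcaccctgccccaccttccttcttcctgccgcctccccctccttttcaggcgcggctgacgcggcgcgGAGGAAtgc
The Itgam run holds the letters at positions -84 to -79 and, on the opposite strand, at -15 to -10, counted from the transcript start, with a further match at 33 to 38 after it. The Itgb1 run holds them at -9 to -4, and Itgb7 at 3 to 8 after the start on the opposite strand but nowhere in the 250 bases shown. Guanine and cytosine made up 49.6% of the Itgam run, 56% of the Itgb7 run and 68% of the Itgb1 run.

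A window of 250 bases before and 50 bases after the start was at hand for 7 of the 10 members, and Itgal, Itgb2 and Itga6 had none. Searched on both strands, GAGGAA was present in 5 of the 7, Itgam, Itgb7, Itgb1, Itga5 and Itgav, and absent from the windows of Itgax and Itga4, beside 28.3% of 32851 windows of the same length over all genes. The called and the uncalled members both include genes with these letters. GGGCGG, the GC box of Sp1, was in 5 of the 7 (35.7% of all windows), and TATAAA, the TATA box, in none of them (13.6% of all windows). These searches count letters and do not measure binding.

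Itgb2, the shared β2 chain of LFA-1 and Mac-1, is the subunit whose loss causes leukocyte adhesion deficiency. Its gene lies at chr10:77530329-77565708 on GRCm38. Itgb2 measured 167.50, 173.16 and 127.52 RPKM in the libraries labelled WT and 70.02, 70.41 and 96.27 RPKM in those labelled Asic3-null. The groups did not overlap, but WT replicate 3 and Asic3-null replicate 3 lay nearer to each other than the rest. The group means were 156.1 ± 24.9 RPKM (SD, n = 3) and 78.9 ± 15.0 RPKM (SD, n = 3), a ratio of 1.98, and the log2 fold change was -0.98 (SE 0.17; 95% interval -1.37 to -0.58; limma adjusted p = 0.0188). The call was lost when Asic3-null replicate 1 or 2, or WT replicate 1 or 2, was left out, with limma adjusted p of 0.0699, 0.0690, 0.0761 and 0.0726, while the log2 fold change stayed between -1.13 and -0.90 over all 6 libraries left out.

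Itgam encodes αM (CD11b), the chain that makes Mac-1 with β2, and is used as a marker of granulocytes and monocytes. It lies at chr7:128062640-128118491. Itgam was at 89.49, 85.67 and 55.12 RPKM in the libraries labelled WT, from 881, 781 and 611 recovered reads, and at 12.91, 12.28 and 16.92 RPKM in those labelled Asic3-null, from 140, 137 and 186 recovered reads. Every library labelled Asic3-null lay far below every library labelled WT, and WT replicate 3 was the lowest of its group. Group means stood at 76.8 ± 18.8 RPKM (SD, n = 3) and 14.04 ± 2.5 RPKM (SD, n = 3), so the WT mean was 5.47 times the Asic3-null mean. The log2 fold change of -2.35 (SE 0.21; 95% interval -2.83 to -1.87) was the lowest among the members, with a limma adjusted p of 0.000720. It was called under all 14 alternative settings, between -2.57 and -2.23 with each library left out.

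Itgal encodes αL (CD11a), which with β2 forms LFA-1, the receptor that arrests leukocytes on ICAMs. It lies at chr7:127296139-127335137, 728 kb from Itgam. Itgal measured 38.32, 39.22 and 35.49 RPKM in the libraries labelled WT and 21.99, 23.62 and 25.27 RPKM in those labelled Asic3-null. The libraries of each group were close together and the groups stood apart. The means of 37.7 ± 1.9 and 23.6 ± 1.6 RPKM (SD, n = 3 each) gave a log2 fold change of -0.65 (SE 0.13; 95% interval -0.95 to -0.35; limma adjusted p = 0.0346). This call was lost whichever library was left out, with limma adjusted p of 0.111, 0.0809 and 0.0911 without Asic3-null replicates 1, 2 and 3 and 0.106, 0.126 and 0.0737 without WT replicates 1, 2 and 3, at log2 fold changes between -0.70 and -0.60.

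Itgax, the αX chain (CD11c) best known from dendritic cells, lies only 11.04 kb from Itgam, at chr7:128129526-128150657. It had 2, 3 and 6 reads in the libraries labelled WT and 3 reads in each library labelled Asic3-null, or 0.24, 0.38 and 0.63 RPKM against 0.32, 0.31 and 0.32 RPKM. The groups overlapped at this very low level. Of its 20 reads 45% were from the libraries labelled Asic3-null (exact binomial 95% interval 23.1% to 68.5%, counting error only), where 52.3% of the sequencing depth was. A difference of the size seen in Itgam, its neighbor, was not tested here, since Itgax fell below the filter. Without the filter its log2 fold change was -0.10 with a limma adjusted p of 0.797.

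Of the β7 and β1 chains, Itgb7 was called lower and Itgb1 was not called. Itgb7, at chr15:102215994-102233405, encodes the gut-homing β chain that pairs with α4. Itgb7 measured 158.47, 146.16 and 140.27 RPKM in the libraries labelled WT and 73.33, 70.65 and 68.48 RPKM in those labelled Asic3-null. Both groups were tight, and the lowest WT value was above the highest Asic3-null value by a wide margin. With means of 148.3 ± 9.3 and 70.8 ± 2.4 RPKM (SD, n = 3 each), WT stood at 2.09 times Asic3-null, with a log2 fold change of -1.05 (SE 0.11; 95% interval -1.31 to -0.80; limma adjusted p = 0.00182). Itgb7 was called under all 14 alternative settings, with log2 fold changes between -1.09 and -1.01. Thus a member outside the β2 family had a lower adjusted p than Itgb2 or Itgal.

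Itgb1, at chr8:128685654-128733579, encodes the β1 chain shared by the receptors for VCAM-1, fibronectin and laminin. Itgb1 was at 33.00, 38.94 and 40.79 RPKM in the libraries labelled WT and 45.72, 45.75 and 44.47 RPKM in those labelled Asic3-null. It is the only member whose Asic3-null values all lay above the WT values. Itgb1 averaged 37.6 ± 4.1 and 45.3 ± 0.73 RPKM (SD, n = 3 each), and the log2 fold change of 0.27 (SE 0.13; 95% interval -0.03 to 0.57) was not called (limma adjusted p = 0.368).

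The 4 member alpha chains that pair with β1 or β7, Itga4, Itga5, Itga6 and Itgav, were detected in every library, and none was called. Itga4, at chr2:79255426-79333114, encodes α4, which binds VCAM-1 with β1 and MAdCAM-1 with β7. Itga4 measured 24.48, 38.18 and 19.76 RPKM in the libraries labelled WT and 18.71, 19.73 and 26.72 RPKM in those labelled Asic3-null. It had the widest spread of these chains, WT replicate 2 being the highest, and the groups overlapped. Its log2 fold change was -0.29 (95% interval -0.85 to 0.27; limma adjusted p = 0.607).

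Itga5, at chr15:103344286-103366791, encodes α5 of the classic fibronectin receptor. Itga5 was at 16.99, 16.11 and 16.15 RPKM in the libraries labelled WT and 17.31, 15.96 and 15.99 RPKM in those labelled Asic3-null. All 6 values lay close together, and the 95% interval of its log2 fold change ran from -0.32 to 0.32 (limma adjusted p = 0.999). Itga6, the laminin-binding α6 chain at chr2:71786886-71858427, measured 10.74, 11.85 and 12.96 RPKM in the libraries labelled WT and 14.17, 10.98 and 14.18 RPKM in those labelled Asic3-null. The groups overlapped, with a log2 fold change of 0.13 (95% interval -0.26 to 0.52; limma adjusted p = 0.763). Itgav, at chr2:83722303-83806917, encodes αV, which binds matrix proteins together with several β chains. Itgav was low, at 4.85, 5.10 and 3.83 RPKM in the libraries labelled WT and 5.08, 3.39 and 4.95 RPKM in those labelled Asic3-null, and its log2 fold change of -0.04 had a 95% interval of -0.55 to 0.47 (limma adjusted p = 0.955). For these 4 chains the intervals still allow changes of the size of their own bounds.

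**Figure D2:**
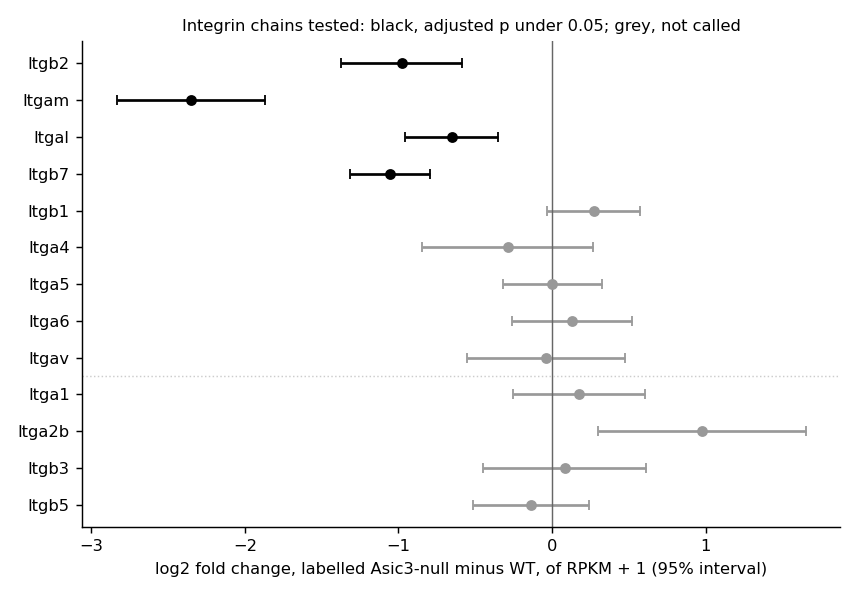
Log2 fold change of RPKM + 1 (Asic3-null minus WT as labelled) with its 95% interval from limma, for the 9 tested members above the dotted line and the 4 other integrin chains tested below it. The intervals of Itgb2, Itgam, Itgal and Itgb7 lie below 0 and those chains were called, whereas Itga2b, whose interval lies above 0, was not called after adjustment over all genes.

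The order of levels differed between the groups, most of all for Itgam. In the libraries labelled WT the order by mean RPKM was Itgb2, Itgb7, Itgam, Itgal, Itgb1, Itga4, Itga5, Itga6, Itgav and Itgax. The ranges of Itgb2 and Itgb7 overlapped, as did those of Itgal and Itgb1 and of Itgb1 and Itga4, and the other neighbors did not overlap. In the libraries labelled Asic3-null the order was Itgb2, Itgb7, Itgb1, Itgal, Itga4, Itga5, Itgam, Itga6, Itgav and Itgax, and the overlapping neighbors were Itgb2 and Itgb7, Itgal and Itga4, Itga5 and Itgam, and Itgam and Itga6. Itgam thus held rank 3 of the 10 in the WT group and rank 7 in the Asic3-null group.

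The make-up of the β chains shifted toward β1 as a share. The sum of Itgb1, Itgb2 and Itgb7 was 342 ± 29 RPKM (SD, n = 3) in the WT group and 195 ± 12 RPKM (SD, n = 3) in the Asic3-null group. Itgb1 made up 9.19%, 10.9% and 13.2% of it in the libraries labelled WT and 24.2%, 24.5% and 21.3% in those labelled Asic3-null. The share of Itgb2 was 45.4% ± 3.7 (SD, n = 3) and 40.2% ± 5.0 (SD, n = 3), and that of Itgb7 was 43.5% ± 2.4 and 36.4% ± 3.3 (SD, n = 3 each). The shares of Itgb1 did not overlap between groups, although its own level was not called.

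Among the alpha chains that pair with β2 the leading chain changed. Shares are of the sum of Itgam, Itgal, Itgax and Itgad, the αD chain that also pairs with β2. Itgam was 69.8%, 68.4% and 60.3% of it in the libraries labelled WT and 36.4%, 33.6% and 39.7% in those labelled Asic3-null. Itgal made up 33.3% ± 4.8 (SD, n = 3) and 62.0% ± 2.7 (SD, n = 3). At the RNA level αM was the main partner of β2 in every library labelled WT and αL in every library labelled Asic3-null. The sum of Itgam, Itgal, Itgax and Itgad was 115.0 ± 20.4 and 38.2 ± 3.9 RPKM in the WT and Asic3-null groups (SD, n = 3 each). The sum of Itga4, Itga5, Itga6 and Itgav was 60.3 ± 9.7 and 55.7 ± 5.9 RPKM (SD, n = 3 each), and those ranges overlapped.

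**Figure D3:**
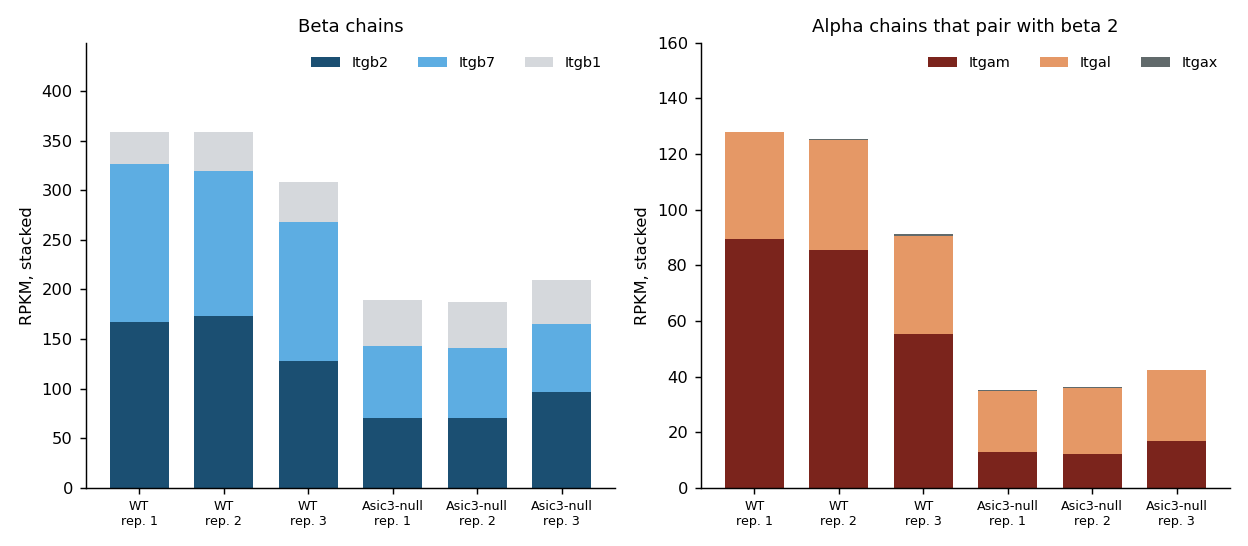
Stacked RPKM of the 3 β chains (left) and of the 3 member alpha chains that pair with β2 (right) in each library, with bars from 0. The light grey Itgb1 segment is of similar height throughout while the Itgb2 and Itgb7 segments are shorter in the libraries labelled Asic3-null. Itgam makes up 60.3% to 69.8% of summed Itgam, Itgal, Itgax and Itgad in libraries labelled WT against 33.6% to 39.7% in the others.

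Ratios of 2 chains within a library were compared for 11 pairs, as log2 ratios of RPKM + 1, by a two-sided exact permutation test, in which 3 against 3 libraries cannot give a p below 0.10. The Itgb2 to Itgb1 ratio of RPKM was 5.08, 4.45 and 3.13 in the libraries labelled WT and 1.53, 1.54 and 2.16 in those labelled Asic3-null, without overlap (exact permutation p = 0.10, 0.22 adjusted over the 11 ratios). The Itgb7 to Itgb1 ratio was 3.998 ± 0.71 (SD, n = 3) and 1.56 ± 0.036 (SD, n = 3), also without overlap (exact permutation p = 0.10). The Itgb2 to Itgb7 ratio was 1.05 ± 0.14 and 1.119 ± 0.25 (SD, n = 3 each) and overlapped (exact permutation p = 0.80). By these values β7 kept its proportion to β2 more nearly than to β1, at a number of libraries that allows no p under 0.10.

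Between alpha and beta chains, Itgam was 0.487 ± 0.051 of Itgb2 (SD, n = 3) in the WT group and 0.178 ± 0.0054 (SD, n = 3) in the Asic3-null group, without overlap (exact permutation p = 0.10). The αM chain was thus lower even relative to its own β partner. Itgal over Itgb2 was 0.245 ± 0.029 and 0.304 ± 0.038 (SD, n = 3 each), with overlap (exact permutation p = 0.20). Itga5 over Itgb1 was 0.442 ± 0.064 and 0.362 ± 0.015 (SD, n = 3 each), without overlap (exact permutation p = 0.10). Itgax over Itgb2 rests on 20 Itgax reads in all, its RPKM ratios overlapped between groups, and its exact permutation p of 0.10 with the pseudocount of 1 was 0.20 with a pseudocount of 0.1 and under quantile normalization. Itga4, Itga6 and Itgav over Itgb1, and Itga4 over Itgb7, overlapped between groups, with exact permutation p from 0.20 to 0.40.

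As 1 value per library, the mean log2(RPKM + 1) of the 4 β2 chains minus that of the 6 β1 and β7 chains was 0.32, 0.22 and 0.16 in the libraries labelled WT and -0.75, -0.59 and -0.53 in those labelled Asic3-null. The difference between the group means was -0.85. With Itgb7 left out of the second set it was -1.03, and against Itgb1 and Itgb7 alone it was -0.63. The contrast of β2 against β1 and β7 chains was thus smaller where the β7 chain was counted with β1. These are scores over chosen genes and carry no test. Among the 4 β2 chains Itgam had a log2 fold change of -2.35, against -0.98 for Itgb2, -0.65 for Itgal and, without the filter, -0.10 for Itgax. Itgb7 was at -1.05. The scores were not computed without Itgam.

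Most of the rest of the integrin family was near 0. Of 16 other alpha and beta chains 4 were above the filter and 12 below it. Only Itgb5, Itga1, Itga2b and Itgb3 reached a mean of 1 RPKM, none was called by limma (1 had an unadjusted p under 0.05) or by limma-voom on the recovered reads, and Itga3, Itgb6 and Itgb8 were listed at 0 in every library. Their median log2 fold change was 0.13. The one furthest from 0 was Itga2b (CD41), the α chain of the platelet fibrinogen receptor, which early progenitors also make. Itga2b measured 6.78, 10.76 and 5.65 RPKM in the libraries labelled WT and 10.43, 21.99 and 16.60 RPKM in those labelled Asic3-null, overlapping only between WT replicate 2 and Asic3-null replicate 1 (log2 fold change 0.98, SE 0.30, limma adjusted p = 0.145). Its β partner Itgb3 was at 8.28 ± 1.88 and 8.85 ± 2.08 RPKM (SD, n = 3 each). Itgb5, a partner of αV, was at 23.4 ± 1.6 and 21.4 ± 3.7 RPKM, and Itga1, a collagen receptor chain, at 14.1 ± 0.60 and 16.3 ± 4.0 RPKM (SD, n = 3 each). Itgad, the αD chain that also pairs with β2 and lies 23.28 kb beyond Itgax, had only 9 reads in the 6 libraries, and Itgae, the αE partner of β7, had 7.

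Itgb2l, a relative of Itgb2 known as pactolus, was named after its values were seen. It had 38, 44 and 42 reads in the libraries labelled WT and 0, 2 and 1 reads in those labelled Asic3-null, or 6.90, 8.63 and 6.78 RPKM against 0, 0.321 and 0.163 RPKM. Nearly all of its reads were from the libraries labelled WT, and only 2.36% of its 127 reads were from the others (exact binomial 95% interval 0.49% to 6.75%, counting error only). It passed the filter on low values through the libraries labelled WT alone, so these values are a description with no test. Itgb2 and this related gene share sequence, and how the authors' counting assigned reads between them was not tested.

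Inside the cell, talin and kindlin switch integrins on and adaptors tie them to actin. Of 30 such genes 26 were tested, 4 were called lower and none higher, with a median log2 fold change of -0.19. Fermt1, Fermt2, Parva and Skap1 were listed at 0. Coro1a, a leukocyte coronin that binds actin and had the highest mean of the list, measured 1377.9, 1099.8 and 1295.5 RPKM in the libraries labelled WT and 659.9, 784.5 and 765.6 RPKM in those labelled Asic3-null (log2 fold change -0.77, SE 0.13, limma adjusted p = 0.0143). Flna, the actin crosslinker filamin A, went from 210.1 ± 8.2 to 123.3 ± 18.6 RPKM (SD, n = 3 each; log2 fold change -0.77, limma adjusted p = 0.0179). Fyb, the adaptor ADAP, was at 37.3 ± 10.8 and 13.7 ± 2.9 RPKM (SD, n = 3 each; log2 fold change -1.36, limma adjusted p = 0.0191). Zyx, the focal adhesion protein zyxin, was at 219.1 ± 10.7 and 135.8 ± 24.3 RPKM (SD, n = 3 each; log2 fold change -0.70, limma adjusted p = 0.0345). Fermt3 (kindlin-3), which leukocytes need to activate β2 integrins, was at 260.8 ± 29.5 and 228.7 ± 14.6 RPKM (SD, n = 3 each) and was not called (log2 fold change -0.19, limma adjusted p = 0.502). The 4 calls were not firm, since leaving out Asic3-null replicate 1 or WT replicate 1 left none of them, leaving out Asic3-null replicate 2, WT replicate 2 or WT replicate 3 left 1, and leaving out Asic3-null replicate 3 left 4 called genes in the list.

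Below the receptors, Src family kinases and ITAM adaptors carry the signal of β2 integrins in myeloid cells. Of 27 signalling genes 22 were tested, 4 were called lower and none higher, the median log2 fold change being -0.21, and Yes1 and Bcar1 were listed at 0. Fgr, a Src family kinase of mature myeloid cells, measured 15.03, 9.80 and 7.18 RPKM in the libraries labelled WT and 1.03, 1.63 and 1.14 RPKM in those labelled Asic3-null. The groups were far apart, with a log2 fold change of -2.32 (SE 0.28, limma adjusted p = 0.00302), and Fgr was called under all 14 alternative settings. The related kinase Lyn was also lower, at 53.7 ± 5.7 and 31.2 ± 4.1 RPKM (SD, n = 3 each; log2 fold change -0.77, limma adjusted p = 0.0287). Fcer1g, an ITAM adaptor, was at 510.1 ± 47.0 and 324.9 ± 20.5 RPKM (SD, n = 3 each; log2 fold change -0.65, limma adjusted p = 0.0198). The other ITAM adaptor, Tyrobp, had the highest mean of the list, at 1321 ± 119 and 938.5 ± 97.4 RPKM (SD, n = 3 each), did not overlap between groups and was not called (log2 fold change -0.49, limma adjusted p = 0.0710). Leaving out any 1 of the 6 libraries reduced the 4 calls to 1 or, without WT replicate 3, to 2.

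The ligands include matrix proteins and cell surface counter-receptors, and some of them are made by myeloid cells themselves. Of 22 ligand genes 9 were tested, with a median log2 fold change of -0.18, and Madcam1, the counter-receptor of α4β7, was listed at 0 with Vtn, Fga, Fgb, Fgg and Lamb1. The 1 called gene was Fn1, fibronectin, the ligand of α5β1 and α4β1. Fn1 measured 216.6, 212.8 and 160.4 RPKM in the libraries labelled WT and 36.1, 22.6 and 22.5 RPKM in those labelled Asic3-null. The groups stood far apart, and the WT mean was 7.26 times the Asic3-null mean (log2 fold change -2.84, SE 0.21, limma adjusted p = 0.000220), called under all 14 alternative settings. The receptor chains of fibronectin, Itga5, Itga4 and Itgb1, were not called. Tgfb1, whose latent form binds αV integrins, had the highest mean of the list, at 200.1 ± 33.8 and 213.9 ± 31.7 RPKM (SD, n = 3 each), and was not called (log2 fold change 0.10, limma adjusted p = 0.807).

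Of 13 surface partners and homing receptors all were tested, 1 was lower and none was higher, with a median log2 fold change of -0.11. The called gene was Plaur, the urokinase receptor, which associates with Mac-1 on the surface, at 66.8 ± 4.8 RPKM in the WT group and 39.6 ± 4.1 RPKM in the Asic3-null group (SD, n = 3 each; log2 fold change -0.74, limma adjusted p = 0.0199). Leaving out Asic3-null replicate 2 or 3, or any 1 library labelled WT, removed its call. Cd47, the integrin-associated protein, was at 322.1 ± 5.0 and 351.6 ± 22.3 RPKM, and Cxcr4, the CXCL12 receptor that guides cells into the marrow, at 326.6 ± 30.8 and 255.2 ± 93.7 RPKM (SD, n = 3 each). Neither was called (limma adjusted p = 0.610 and 0.445). All 10 calls in the adaptor, signalling, ligand and partner lists were lower, the direction of 340 of the 403 genes called in all.

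**Figure D4:**
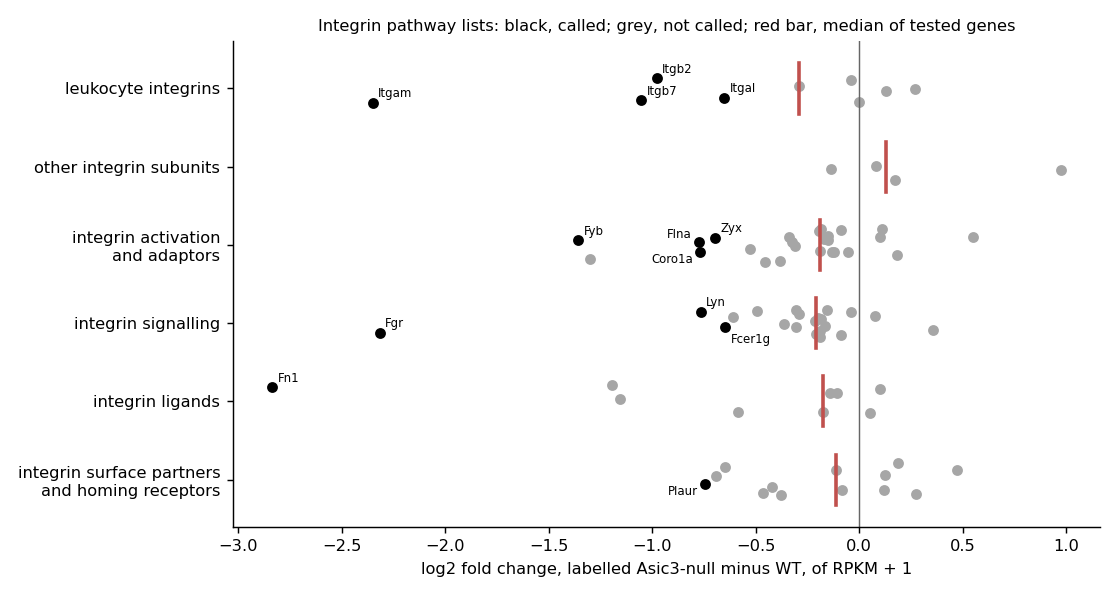
Log2 fold change of RPKM + 1 (Asic3-null minus WT as labelled) of each tested gene, by list, with called genes in black and named, genes not called in grey, 1 signalling gene not shown, and the median of all tested genes of each list as a red bar; vertical scatter within a list carries no value. Every black point lies below 0, from -2.84 for Fn1 to -0.65 for Fcer1g, and the list medians lie between -0.29 and 0.13.

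The calls on the 4 lower members differed in how well they held under other settings. Itgam and Itgb7 were called under all 14, with limma adjusted p of at most 0.00510 and 0.0131. Itgb2 was called under 8 and Itgal under 6 of the 14, and both kept a negative log2 fold change throughout. On the recovered reads, limma-voom called the same 4 members, with adjusted p of 4.84e-05 for Itgam, 0.000452 for Itgb7, 0.00515 for Itgb2 and 0.0135 for Itgal, and called none of the other 5 tested.

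**Figure D5:**
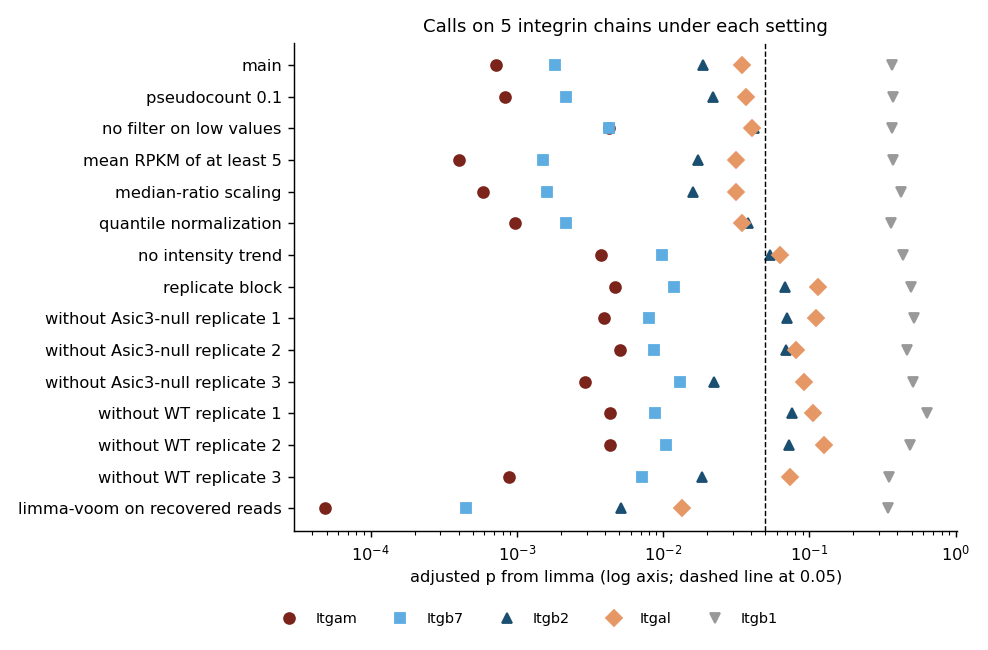
Adjusted p from limma (log axis) for 5 integrin chains under the main setting and 14 alternatives, 1 row per setting, with the threshold of 0.05 as a dashed line. Itgam and Itgb7 stay left of the line in every row, Itgb2 crosses it in 6 rows and Itgal in 8, and Itgb1 lies to its right throughout, at 0.346 to 0.636 under the alternatives.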

How the data were processed

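Sorted LICs were profiled as 3 libraries labelled Asic3-null and 3 labelled WT, with groups and replicate numbers taken from the sample labels. Libraries were made by the authors with TruSeq RNA v2, a kit that does not mark strand. Per the submitters' processing notes, CASAVA 1.8.2, TopHat2 2.0.12 and GRCm38 were used. The authors deposited 1 table of RPKM per Entrez gene and library. The counting tool and gene annotation are not given in the sources used here. RefSeq on GRCm38.p6 supplied symbols and coordinates (25275 of 27179 genes matched) and the promoter windows.

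Whole reads were recovered from the RPKM steps (all 16825 genes above 0, within 0.0001 reads), and made up 99.6% of the inferred library size, with a median of 81 reads per tested gene and library. Intervals from reads cover counting error only. Tests used limma 3.58.1 in R 4.3.3 (with an intensity trend and no covariate beside the genotype label, on log2(RPKM + 1), mean RPKM of at least 1, Benjamini-Hochberg threshold 0.05), and exact permutation in scipy 1.17.1 for chain ratios, whose log2 differences used the same pseudocount of 1. The labels do not say that libraries came from separate animals, so p-values measure only the spread between these samples, which may be technical. Alternatives were a pseudocount of 0.1, no filter, a mean of at least 5 RPKM, quantile normalization, median-ratio scaling, a fit with no intensity trend, limma-voom on recovered reads, the replicate number as a block, and each library left out in turn with the filter applied again.

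Members, lists and motifs were chosen with earlier results of these data known. Named genes are all members, other integrin chains with a mean of at least 1 RPKM, and, of each pathway list, the called genes (at most 6) and the 2 with the highest mean, besides genes listed at 0 or close to a member, and Itgb2l. Of the check lists, sums and defining markers are given. A few genes under this rule are not reported here. Tested on simulated data (Asic3-null against WT, 11883 genes) with a dispersion of 0.011, the limma step recovered 7.46% of 67 genes changed by 1.5-fold, 58.2% of 67 changed by 2-fold and 87.9% of 66 changed by 4-fold, with 6 false calls.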

Additional observations from a re-analysis of the deposited data

How the results depend on the processing

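Of the values with a setting changed, 72 counts or scores that answer a comparison stayed close and 35 moved. Of the values for single chains and ratios 202 were unchanged in direction and call, 14 lost their call (Itgb2 and Itgal) and 8 reversed. For ratios this speaks of direction only, since their exact permutation p cannot fall below 0.10 and none could be called. The reversed values lay near 0. Itga5 ran from -0.037 to 0.023 (log2 fold change) with 1 library left out, Itgav from -0.14 to 0.11 and was 0.026 under quantile normalization, and the Itgb2 to Itgb7 ratio ran from -0.10 to 0.18 (log2). Genes called in all numbered 403, and 203 to 293 with 1 library left out. Called members numbered 2 without the intensity trend and 2 to 3 with 1 library left out. Adaptors called numbered 2 without the intensity trend and 0 to 4 with 1 library left out, signalling genes 1 and 1 to 2, and surface partners 0 and 0 to 1. Ligands called numbered 2 with limma-voom on recovered reads. The replicate number used as a block gave 246 genes called in all, 2 members, 1 adaptor, 1 signalling gene and 0 surface partners. Deviations of libraries with the same number correlated at 0.0591, -0.0593 and -0.123, and those of Asic3-null replicate 2 and WT replicate 3 at 0.141. The labels do not say whether libraries with the same number were paired. These correlations cannot decide it, since deviations from the mean of so few libraries must balance within a group. The self-test recovered few changes of 1.5-fold at this depth and size, which limits what can be said of chains not called. The cause of each change was not tested.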
